A study of Mus musculus with 6 samples.

Results

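The genes described here encode Ly6 family surface proteins of naive CD8 T cells, together with Thy1, a surface protein anchored in the same way. They were named as 8 gene symbols, chosen by their RPKM in GFP-hi against GFP-lo libraries in an earlier look at the same data, and 7 of the 8 were found among 11162 genes in a table of normalised expression (Ly6a, Ly6c1, Ly6c2, Ly6e, Ly6k, Ly6g5b and Thy1). Ly6d was not analysed here. RNA had been sequenced from 6 samples of mouse spleen, 3 GFP-hi and 3 GFP-lo. All of the mice carried Nur77-GFP (Tg(Nr4a1-EGFP)GY139Gsat), which places green fluorescent protein under Nr4a1 regulatory sequence, so both populations came from reporter animals and a reporter-free group is not part of the comparison. All of the cells were labelled as OT-I, a transgenic T-cell receptor with a single specificity, and had been sorted as CD8+ cells with low CD44, high CD62L and high Qa2. Bright cells form the GFP-hi population and dim cells the GFP-lo population. Age, sex, treatment and any pooling of mice are not given in the labels, so p-values measure the spread between these samples, which may be technical.

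Ly6 proteins are small, cysteine-rich proteins held at the outer cell surface by a glycosylphosphatidylinositol (GPI) anchor, a lipid tail added in the endoplasmic reticulum in place of a membrane-spanning segment. Several members, including Ly6a (Sca-1), the Ly6c genes and Ly6e, are induced by interferons, and Ly6C and Ly6a are widely used to tell T-cell subsets apart. In naive T cells, low surface Ly6C has been associated with stronger signalling from self-peptides, which is also what a bright Nur77 reporter is used to report. The RPKM values used below count reads relative to gene length and library size, so levels can be compared between genes as well as between libraries.

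Libraries held 26170000 to 35940000 reads, as recovered from the step that 1 read makes in low RPKM values. All 11 T-cell genes examined were present, for example Cd3e at a mean of 200.5 RPKM and Cd8b1 at 812 RPKM, and their summed level was 2150 to 2277 RPKM in GFP-hi against 2096 to 2158 RPKM in GFP-lo libraries. Cd44, low on the sorted cells, was at 2.36 RPKM. GFP-hi replicate 2 and GFP-lo replicate 2 had far more of the heat-shock transcript Hspa1a, with 1100 and 1234 RPKM against 152 to 235 RPKM in the other 4 libraries. The median RPKM of 41 nasal receptor genes was 0.037 in GFP-hi replicate 2 and 0.038 in GFP-lo replicate 1, against 0.263 to 0.583 elsewhere. Fits without the libraries that stand apart are given beside the results they change.

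Most of the listed members lie in a cluster on mouse chromosome 15 (build GRCm38, GENCODE M21 gene models). On the minus strand are Ly6k (chr15:74796874-74799986), Ly6a (chr15:74994877-74998031), Ly6c1 (chr15:75044018-75048830) and Ly6c2 (chr15:75108158-75111970), and on the plus strand Ly6e (chr15:74955051-74959905). Ly6g5b lies at chr17:35113948-35115428 and Thy1 at chr9:44043384-44048579. Of these genes, only Ly6k overlaps another annotated gene, the antisense Gm17189, and how strand was used in counting is not given in the sources used here.

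Ly6c1 and Ly6c2 both encode forms of the Ly6C surface antigen, and their coding sequences decide how far their reads can be told apart. Both are 396 bases long in the GENCODE M21 transcripts Ly6c1-201 and Ly6c2-201 and differ at 9 bases. Their first 300 bases, coding strand, are shown with the 7 differing bases in capitals.
Ly6c1: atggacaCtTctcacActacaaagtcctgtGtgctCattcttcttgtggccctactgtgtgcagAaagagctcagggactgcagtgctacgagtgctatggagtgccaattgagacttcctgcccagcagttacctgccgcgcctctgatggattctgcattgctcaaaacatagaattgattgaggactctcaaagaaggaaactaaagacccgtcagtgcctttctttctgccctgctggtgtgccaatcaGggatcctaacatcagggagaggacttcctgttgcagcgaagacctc
Ly6c2: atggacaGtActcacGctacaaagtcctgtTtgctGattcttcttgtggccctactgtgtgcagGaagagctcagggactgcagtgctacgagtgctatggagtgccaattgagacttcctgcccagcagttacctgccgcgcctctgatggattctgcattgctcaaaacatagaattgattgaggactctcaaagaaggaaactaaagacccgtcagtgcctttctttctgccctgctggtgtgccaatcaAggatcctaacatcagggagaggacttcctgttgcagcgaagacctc
Over the whole coding length they were identical at 97.7% of positions, with the longest stretch without a difference running for 188 bases. Ly6a, with a coding sequence of 405 bases, was identical to Ly6c1 at 82.0% and to Ly6c2 at 81.7% of aligned positions, whereas Ly6e matched Ly6a at 53.8%. Of the distinct stretches of 50 bases in the Ly6c1 transcript, 36.7% also occurred in a transcript of another gene, and 252 of these 292 stretches were shared with Ly6c2. For Ly6c2 the share was 33.0% and for Ly6a 8.05%, part of it with Ly6i. None of the 50-base stretches of Ly6e, Ly6k, Ly6g5b or Thy1 was found in another gene's transcript. Values of Ly6c1 and Ly6c2 are therefore also given as a sum. If both genes were given the same length, this sum does not depend on how reads were divided between the copies. The lengths behind the RPKM values are not given in the sources used here.

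The 7 listed genes spanned a wide range of levels. Ly6e had the highest RPKM, with a mean of 53.8 over the 6 libraries, above 94.0% of all genes tested. It was followed by Ly6c2 (32.4 RPKM), Thy1 (23.5 RPKM), Ly6a (10.6 RPKM), Ly6k (5.68 RPKM), Ly6c1 (2.03 RPKM) and Ly6g5b (1.48 RPKM). In the GFP-lo libraries each neighbouring pair in that order had separate ranges. In the GFP-hi libraries the ranges of Ly6c2 and Thy1 overlapped, and so did those of Ly6c1 and Ly6g5b, so that the order within these pairs was not resolved. The least abundant members rested on few reads. At the length of Ly6g5b-201 its values corresponded to 38 to 64 reads per library, and at the length of Ly6c1-201 those of Ly6c1 corresponded to 26 to 69 reads.

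**Figure D1:**
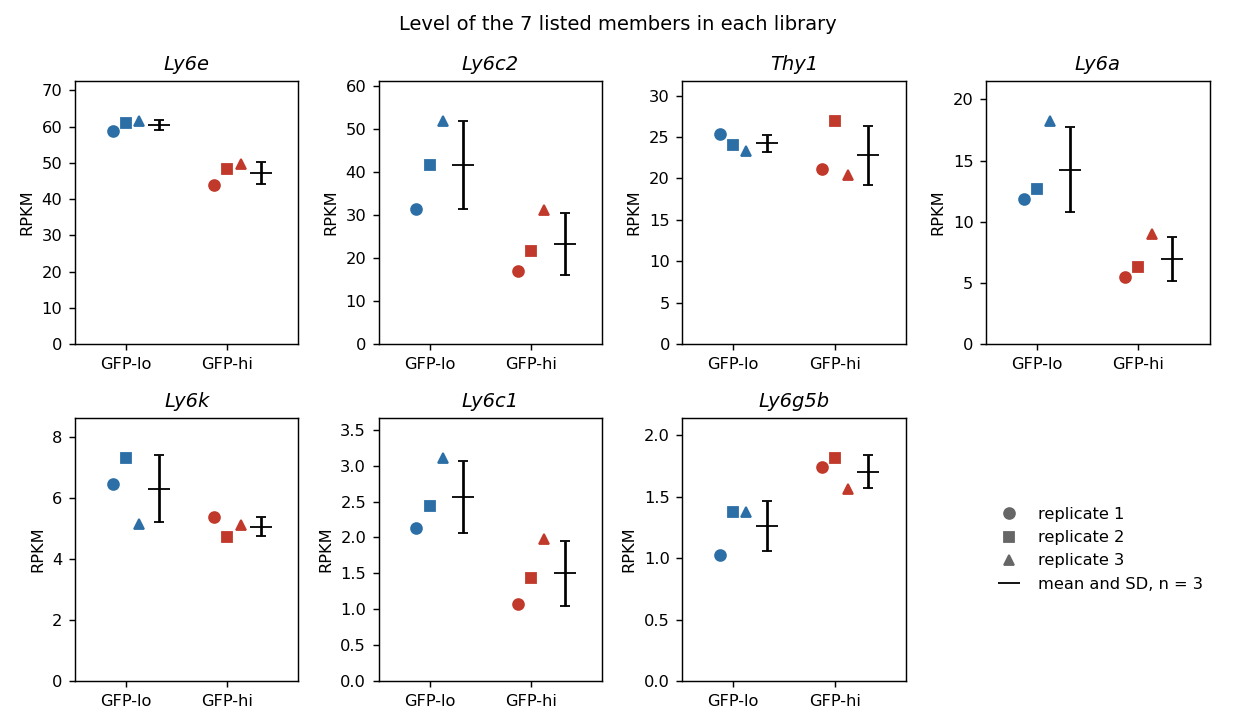
RPKM of the 7 listed genes in each of the 6 libraries, on linear axes that start at 0, with GFP-lo in blue and GFP-hi in red, marker shapes for replicates and the mean with its SD (n = 3) beside each group. All GFP-hi values of Ly6e, Ly6c2, Ly6a and Ly6c1 lie below all GFP-lo values, those of Ly6g5b lie above, and those of Thy1 and Ly6k overlap.

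The comparison between the populations addressed how the transcriptome of naive CD8 T cells with a bright Nur77 reporter differs from that of cells with a dim one. Ly6a and Ly6e were lower in GFP-hi cells, with log2 differences of -0.94 and -0.35. In size these lay above 99.6% and 95.3% of those of all genes tested. The Ly6c genes had lower values in each GFP-hi library but did not pass the threshold, and neither did Ly6k, Ly6g5b or Thy1. Expression was compared with limma on log2(RPKM + 1) over all 9351 genes with a mean of at least 1 RPKM, which all 7 genes reached, and p-values were adjusted by the Benjamini-Hochberg method over all of them. At an adjusted p under 0.05, 3.95% of tested genes differed, 1.49% being lower and 2.46% higher in GFP-hi (139 and 230 genes, or 183 and 199 after scaling by trimmed mean of M values). Among the 7 genes 2 were lower and 0 higher, and at an unadjusted p under 0.05 there were 5 lower and 1 higher. Over all genes tested, 20.2% reached that unadjusted level in either direction. The median log2 difference of the 7 was -0.35, against 0.02 over all genes tested. Since the genes were chosen with this contrast known, these counts and the p-values below describe them and are not independent evidence. In bulk RNA, fewer cells that express a gene and less RNA per cell cannot be told apart.

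Ly6a, also known as Sca-1, is an antigen of stem cells and of activated or interferon-exposed lymphocytes. Its level was 5.529, 6.34 and 8.999 RPKM in the 3 GFP-hi libraries and 11.9, 12.7 and 18.2 RPKM in the 3 GFP-lo libraries. The highest GFP-hi library lay below the lowest GFP-lo library, and replicate 3 was the highest within each population. Mean levels were 6.96 ± 1.82 and 14.3 ± 3.45 RPKM (SD, n = 3 each), so that the GFP-hi mean was 51.2% lower. On the log2(RPKM + 1) scale Ly6a fell by 0.94 (limma standard error, SE, 0.188, 95% interval -1.37 to -0.51, adjusted p = 0.033). Its spread within the populations, an SD of 0.314 on that scale, was larger than that of 98.0% of genes tested, whose median SD was 0.0897. The adjusted p was 0.017 without GFP-hi replicate 3 and between 0.066 and 0.102 when GFP-hi replicate 1 or 2 or GFP-lo replicate 1, 2 or 3 was left out, with log2 differences from -1.12 to -0.76. It was 0.062 with robust variance estimation, 0.17 without both replicates 2 (the libraries rich in heat-shock RNA) and 0.071 without GFP-hi replicate 2 and GFP-lo replicate 1 (the libraries poor in nasal receptor reads).

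Ly6c2, the more abundant of the Ly6C genes, had 17.0, 21.6 and 31.1 RPKM in the GFP-hi libraries and 31.4, 41.5 and 51.8 RPKM in the GFP-lo libraries. The populations did not overlap, but GFP-hi replicate 3 came within 0.272 RPKM of GFP-lo replicate 1. Mean levels were 23.2 ± 7.17 and 41.5 ± 10.2 RPKM (SD, n = 3 each), a log2 difference of -0.82 (SE 0.228, 95% interval -1.35 to -0.30, limma adjusted p = 0.094). Ly6c1 had 1.08, 1.44 and 1.98 RPKM in GFP-hi libraries against 2.13, 2.44 and 3.11 RPKM in GFP-lo libraries. Its groups were separate too, with means of 1.499 ± 0.453 and 2.56 ± 0.502 RPKM (SD, n = 3 each). Its log2 difference was -0.52 (SE 0.148, limma adjusted p = 0.10) on a scale that understates changes of genes at this level, and the ratio of the means was 0.586, close to the 0.559 of Ly6c2.

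The sum of Ly6c1 and Ly6c2 was 18.1, 23.0 and 33.1 RPKM in GFP-hi libraries and 33.5, 44.0 and 54.9 RPKM in GFP-lo libraries. It differed by a log2 difference of -0.82 (SE 0.227, limma adjusted p = 0.094), so the sum did not pass the threshold in this unpaired fit either. Without GFP-hi replicate 3, the library nearest to the GFP-lo range, the summed value was lower in GFP-hi by a log2 difference of -1.05 (limma adjusted p = 0.038) and that of Ly6c2 alone by -1.05 (adjusted p = 0.039). No other alternative fit brought the sum or Ly6c2 past the threshold. Leaving out any other single library gave adjusted p from 0.097 to 0.238 for the sum. For the sum it was 0.184 with robust variance estimation, 0.333 without the pair rich in heat-shock RNA and 0.101 without the pair poor in nasal receptor reads. Ly6c2 was 14.7 to 17.0 times as high as Ly6c1 in each of the 6 libraries. The mean ratio was 15.5 ± 0.439 in GFP-hi and 16.1 ± 1.23 in GFP-lo (SD, n = 3 each), a difference smaller than the spread within GFP-lo. The near-constant ratio is what the plot of Ly6c2 against Ly6c1 shows, and how much of the Ly6c1 signal came from reads of the more abundant copy was not tested.

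**Figure D2:**
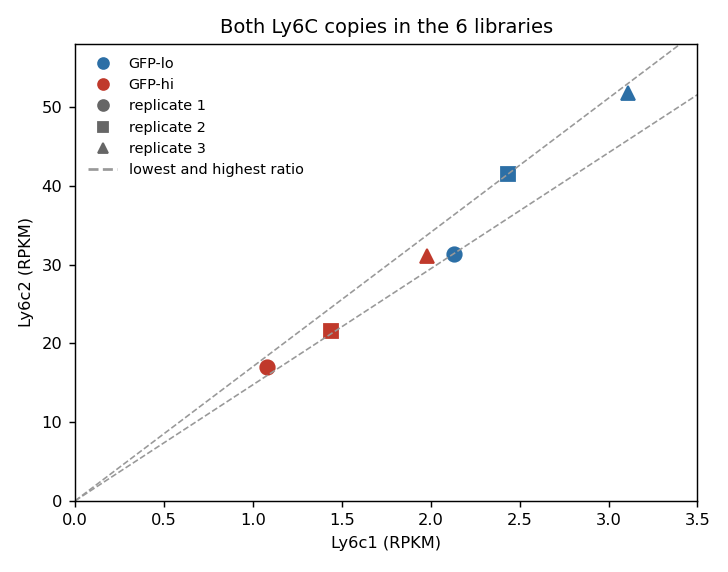
Ly6c2 against Ly6c1, both in RPKM on linear axes from 0, with 1 point for each library (GFP-lo blue, GFP-hi red, marker shapes for replicates) and dashed lines at the lowest (14.7) and highest (17.0) ratio. The 6 points lie within this narrow fan, with the GFP-hi libraries nearer the origin.

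Ly6e, an interferon-inducible member known for its role in restricting the entry of some viruses, had 43.9, 48.2 and 49.6 RPKM in GFP-hi libraries and 58.8, 60.9 and 61.5 RPKM in GFP-lo libraries. The groups were far apart for the spread within them, with means of 47.2 ± 2.998 and 60.4 ± 1.39 RPKM (SD, n = 3 each). Ly6e fell by 0.35 on the log2(RPKM + 1) scale (SE 0.060, 95% interval -0.49 to -0.21, limma adjusted p = 0.020), which corresponds to a mean 21.8% lower in GFP-hi. Leaving out GFP-hi replicate 1 gave an adjusted p of 0.069, leaving out GFP-lo replicate 2 gave 0.087 and leaving out GFP-lo replicate 3 gave 0.084. It was 0.11 without the pair rich in heat-shock RNA and 0.034 without the pair poor in nasal receptor reads.

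Ly6k, best known for its expression in the testis, had 5.35, 4.71 and 5.10 RPKM in GFP-hi libraries and 6.45, 7.30 and 5.15 RPKM in GFP-lo libraries. The populations overlapped, because GFP-lo replicate 3 lay among the GFP-hi values. The log2 difference was -0.26 (SE 0.109, limma adjusted p = 0.23). It was -0.12 without the pair rich in heat-shock RNA (adjusted p = 0.64), -0.16 with GFP-lo replicate 2 omitted (adjusted p = 0.50) and -0.38 with GFP-lo replicate 3 omitted (adjusted p = 0.087). Ly6g5b, a gene of the major histocompatibility complex region, was the only listed gene with a positive value. It had 1.74, 1.82 and 1.56 RPKM in GFP-hi libraries and 1.03, 1.38 and 1.38 RPKM in GFP-lo libraries, a log2 difference of 0.26 (SE 0.090, 95% interval 0.06 to 0.47, limma adjusted p = 0.16). Its populations were separate, at the low read numbers given above, and the difference was 0.16 without the pair poor in nasal receptor reads.

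Thy1 carries a GPI anchor but belongs to the immunoglobulin superfamily and marks T cells of all kinds in the mouse. It had 21.1, 26.9 and 20.4 RPKM in GFP-hi libraries and 25.4, 24.0 and 23.4 RPKM in GFP-lo libraries. GFP-hi replicate 2, one of the pair with high heat-shock RNA, was above all other libraries, and the remaining GFP-hi libraries were below them. The log2 difference was -0.09 (SE 0.0998, 95% interval -0.32 to 0.14, limma adjusted p = 0.66), an interval that excludes a change as large as that of Ly6a or Ly6c2 at their estimates. Without GFP-hi replicate 2 it was -0.21 (adjusted p = 0.099), without the pair rich in heat-shock RNA -0.22 and without the pair poor in nasal receptor reads -0.18. It was -0.05 without GFP-hi replicate 1, -0.02 when the third GFP-hi library was left out and -0.06 with GFP-lo replicate 1 omitted.

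**Figure D3:**
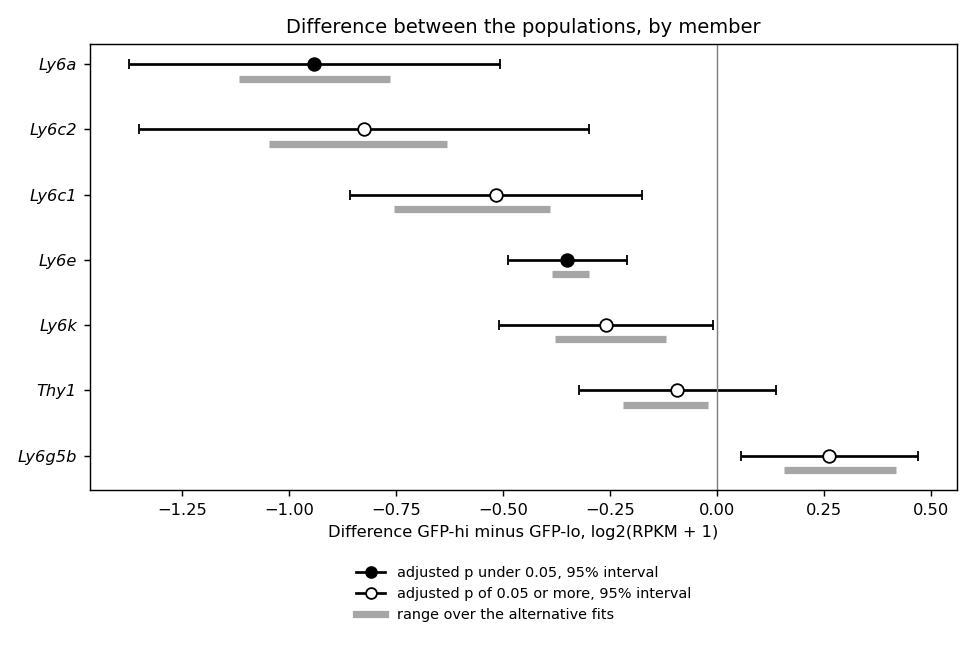
Difference between the populations for each listed gene (GFP-hi minus GFP-lo, log2(RPKM + 1)) with its 95% interval from limma, filled where the adjusted p was under 0.05, and a grey bar for the range over the alternative fits. Ly6a (-0.94) and Ly6c2 (-0.82) have the lowest values and the widest intervals, Ly6e (-0.35) has the narrowest, and the interval of Thy1 includes 0.

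Every GFP-hi library lay below every GFP-lo library for 4 of the 7 genes, an arrangement found in 9.84% of all genes tested, and above for Ly6g5b, as in 17.1% of genes. Summed over the 7 genes, the GFP-hi libraries held 95.7, 111 and 119 RPKM and the GFP-lo libraries 137, 150 and 164 RPKM. Ly6a, Ly6c1 and Ly6c2 together accounted for 31.7 ± 9.43 RPKM in GFP-hi libraries against 58.4 ± 13.9 RPKM in GFP-lo (SD, n = 3 each). Most of the difference in the family sum thus came from these genes, and Ly6c2 held the largest part.

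The same 4 genes also followed each other from library to library within a population. Across the 6 libraries Pearson's r on the log2(RPKM + 1) scale was 0.973 between Ly6a and Ly6c2, 0.984 between Ly6a and Ly6c1, 0.995 between Ly6c1 and Ly6c2 and 0.946 between Ly6a and Ly6e. After subtraction of each population's mean it was 0.948, 0.974, 0.986 and 0.752 for the same pairs, so these genes also varied together within the populations. Ly6a and Thy1 had an r of 0.129 and Ly6a and Ly6k of 0.4004. These are descriptions over 6 libraries that share handling, and reads shared between the copies enter the first 3 pairs.

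Among all genes tested, those most like Ly6a over the 6 libraries were Oasl2 (r = 0.996), Zbtb8a (0.995), Tmem65 (0.989), Ifit1bl1 (0.988) and Hdgfl3 (0.987), with Ly6c1 the 11th and Ly6c2 the 25th by r. For Ly6c2 they were Ly6c1 (0.995), Lcmt2 (0.990), Ifit1bl1 (0.987), Parp12 (0.983) and Inpp5f (0.981), and for Ly6c1 they were Ly6c2, Lcmt2 (0.991), Ifit1bl1 (0.991), Zfp275 (0.989) and Inpp5f (0.988). Oasl2, an interferon-induced gene of the oligoadenylate synthetase family, had 2.88, 3.21 and 4.50 RPKM in GFP-hi libraries against 5.75, 5.74 and 8.90 RPKM in the others (log2 difference -0.78, limma adjusted p = 0.054). Ifit1bl1, a relative of the interferon-induced Ifit1, had 23.3, 26.0 and 34.8 RPKM against 36.8, 41.7 and 56.5 RPKM (-0.66, adjusted p = 0.089). Both were separate between the populations without passing the threshold. Since they were chosen by likeness to genes with separate populations, this separation is no added evidence. Zbtb8a (-0.27, limma adjusted p = 0.075), Tmem65 (-0.22, adjusted p = 0.13) and Hdgfl3 (-0.14, adjusted p = 0.28) did not pass either.

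Interferon-stimulated genes, averaged as a list, were highest in the same libraries within each population as the Ly6 genes, while the ranges of the populations overlapped. The mean log2(RPKM + 1) of 49 such genes, Ly6 genes not included, was 4.37, 4.46 and 4.67 in the GFP-hi libraries and 4.42, 4.51 and 4.75 in the GFP-lo libraries. The population means were 4.50 ± 0.152 and 4.56 ± 0.172 (SD, n = 3 each). Replicate 3 was the highest library of its population in both populations for 43 of the 49 genes, against 12.8% of all genes tested, and for Ly6a, Ly6c1, Ly6c2 and Ly6e among the 7 listed genes. Deviations of Ly6a from its population means had an r of 0.994 with those of the list mean over the 6 libraries, those of Ly6c2 0.959, those of Ly6e 0.742 and those of Thy1 -0.403. The part of this library pattern in the Ly6 values was not tested. At an unadjusted p under 0.05 (limma), 5 of the 49 genes were lower in GFP-hi and 0 higher. Over all genes tested, 20.2% reached that level in either direction. After adjustment over all genes 1 of the 49 was lower and 0 were higher, against 1.49% and 2.46% of all genes tested. The median log2 difference of the list was -0.04. The lower gene was the guanylate-binding protein gene Gbp2, with 30.3, 33.0 and 33.4 RPKM against 43.4, 41.4 and 47.2 RPKM (-0.44, adjusted p = 0.013).

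**Figure D4:**
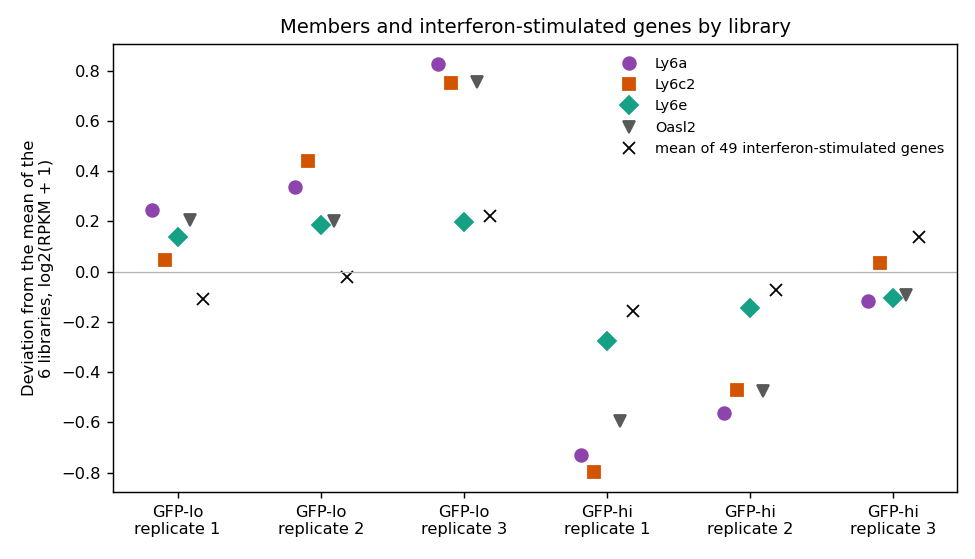
Deviation of Ly6a, Ly6c2, Ly6e, Oasl2 and the mean of 49 interferon-stimulated genes from their own mean over the 6 libraries, in log2(RPKM + 1), for each library. Ly6a, Ly6c2 and Oasl2 are lower in GFP-hi than in GFP-lo libraries, whereas the list mean (4.37 to 4.67 in GFP-hi, 4.42 to 4.75 in GFP-lo) overlaps, and each series has its highest value within each population in replicate 3.

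Interferon receptors and their signalling genes were examined next, since interferons induce Ly6a, Ly6c and Ly6e. Of 17 such genes tested 2 were lower and 0 higher in GFP-hi (limma, adjusted over all genes), against 1.49% and 2.46% of all genes tested. At an unadjusted p under 0.05, 3 of the 17 were lower and 0 higher. The share of all tested genes at that unadjusted level, in either direction, was 20.2%. Ifngr1, the ligand-binding chain of the interferon-gamma receptor, had 48.5, 52.1 and 52.2 RPKM in GFP-hi libraries and 73.4, 73.1 and 77.4 RPKM in GFP-lo libraries, a fall by 0.54 on the log2(RPKM + 1) scale (SE 0.055, adjusted p = 0.0024). Socs3, an inhibitor of cytokine signalling, fell by 0.93 (adjusted p = 0.021). Ifngr2 (log2 difference 0.10, adjusted p = 0.67) and the type I receptor chain genes Ifnar1 (0.03, adjusted p = 0.82) and Ifnar2 (0.03, adjusted p = 0.81) did not pass.

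Promoters are shown for the Ly6C genes because both had lower values in GFP-hi libraries in near-constant proportion. The RefSeq promoter table (GRCm38.p6) held windows for 3 of the 7 genes, Ly6c1, Ly6c2 and Ly6g5b. The 250 bases before the start of Ly6c1 (chr15:75048838-75049087, minus strand) and of Ly6c2 (chr15:75111972-75112221, minus strand) are printed with their longest shared run, 20 bases, in capitals.
Ly6c1 promoter: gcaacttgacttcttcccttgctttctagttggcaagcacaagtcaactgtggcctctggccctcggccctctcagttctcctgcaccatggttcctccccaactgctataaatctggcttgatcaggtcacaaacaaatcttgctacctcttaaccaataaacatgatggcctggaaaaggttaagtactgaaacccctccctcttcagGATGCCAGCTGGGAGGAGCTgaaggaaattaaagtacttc
Ly6c2 promoter: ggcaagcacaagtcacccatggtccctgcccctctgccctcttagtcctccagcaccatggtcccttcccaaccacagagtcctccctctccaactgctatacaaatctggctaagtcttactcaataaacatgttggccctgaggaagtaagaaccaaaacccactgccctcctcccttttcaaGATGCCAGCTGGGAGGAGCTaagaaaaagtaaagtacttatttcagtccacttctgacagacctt
The windows were identical at 57.7% of aligned positions (164 of 284). The shared run ended 20 bases before the start of Ly6c1 and 45 bases before that of Ly6c2, so the windows are offset. Bases left without a partner were counted as not identical. The value is therefore not comparable with the 97.7% of the coding sequences. Windows of 300 bases, including 50 after the start, were searched on both strands for the interferon-stimulated response element (GAAA, 2 bases of any kind, GAAA), the gamma-activated site (TTCNNNGAA) and the monomer site of Nur77 (AAAGGTCA). None of these letters was found in the 6 windows of Ly6c1, Ly6c2 and Ly6g5b. Of all 32851 windows in the table, 3.44%, 8.30% and 1.51% held the respective motif.

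The relatives of the Ly6 family and the machinery of its anchor were described from lists of their known members. Of 38 other genes of the Ly6 and urokinase receptor superfamily 2 were tested. Plaur, the urokinase receptor gene, had a log2 difference of 0.32 (limma adjusted p = 0.28) and Lypd6b of -0.03 (adjusted p = 0.91). Neither reached an unadjusted p under 0.05. Of 30 genes of GPI anchor synthesis and attachment 1 was higher and 1 lower, with a median log2 difference of -0.02. Over all genes tested, 2.46% were higher and 1.49% lower. At an unadjusted p under 0.05 (limma), 6 of the 30 were higher and 2 lower, against 20.2% of all genes in either direction. The higher gene was Pigl, which removes an acetyl group from an early anchor intermediate (0.26, adjusted p = 0.035), and the lower one was Tmem8 (-0.33, adjusted p = 0.048).

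Other GPI-anchored lymphocyte proteins changed in both directions. Of 14 genes tested 3 rose and 2 fell with GFP brightness, against 2.46% and 1.49% of all genes tested. At an unadjusted p under 0.05 (limma), 4 were higher and 4 lower, against 20.2% of all genes in either direction. The list's median log2 difference was -0.02. Cd160, a receptor of the immunoglobulin superfamily, had 27.8, 25.1 and 24.0 RPKM in GFP-hi libraries against 13.9, 12.2 and 11.3 RPKM in the others (0.98, limma adjusted p = 0.0014). Cd24a (1.40, adjusted p = 0.014) and the folate receptor relative Izumo1r (1.17, adjusted p = 0.00087) rose as well. The 2 that fell were Nt5e, which encodes the ectoenzyme CD73 (-0.58, adjusted p = 0.018), and the repulsive guidance molecule gene Rgmb (-0.56, adjusted p = 0.0076).

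The genes next to the chromosome 15 cluster gave few values. Of 23 protein-coding neighbours annotated within 500 kb on either side, 3 were tested, and 1 of them was lower in GFP-hi. Over all genes tested, 1.49% were lower. The lower neighbour was Them6, with 4.59, 4.67 and 5.20 RPKM against 6.18, 6.79 and 6.02 RPKM (log2 difference -0.33, limma adjusted p = 0.041). Arc (-0.11, adjusted p = 0.77) and Jrk (-0.17, adjusted p = 0.38) did not pass.

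Several Ly6 genes also mark cells other than naive T cells, Ly6C being high on monocytes, plasma cells and memory CD8 T cells and Ly6a on endothelium, so the markers of those cells are given. Of 12 monocyte and macrophage genes 3 were listed and none of those tested passed the threshold or an unadjusted p under 0.05 in limma, with a summed level of 49.05 to 58.2 RPKM in GFP-hi against 57.8 to 66.6 RPKM in GFP-lo, nearly all of it Ctss (-0.16, adjusted p = 0.37), which lymphocytes express too, while Cd68 was at 1.183 to 2.261 RPKM (-0.21, adjusted p = 0.43) and Itgam at most 0.431 RPKM. Of 10 neutrophil genes only Mmp8 was listed, at up to 1.39 RPKM. Of 12 B cell genes 4 were listed, with Cd79b at 12.02 to 14.1 RPKM in GFP-hi against 10.6 to 11.1 RPKM in GFP-lo (0.26, adjusted p = 0.075) and Ms4a1 at most 0.597 RPKM. Of 8 plasma cell genes 3 were listed, with Xbp1 at 10.1 to 13.4 RPKM (0.06, adjusted p = 0.76). Jchain, below the level tested, was at 0.822 to 1.45 RPKM in GFP-hi against 0.145 to 0.450 RPKM in GFP-lo. Of 10 endothelial genes 4 were listed, with Kdr, Vwf and Emcn at most 0.530 RPKM and Pecam1, which naive T cells express, at 27.7 to 32.6 RPKM (0.01, adjusted p = 0.97).

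Plasmacytoid dendritic cell genes were listed for 7 of 10, with summed levels of 126 to 147 RPKM in GFP-hi against 127 to 147 RPKM in GFP-lo, among which Ccr9 (0.67, limma adjusted p = 0.010) and Pacsin1 (0.52, adjusted p = 0.0094) were higher in GFP-hi. Atp1b1 (-0.14, adjusted p = 0.19) did not pass, nor did Bst2 (-0.05, adjusted p = 0.89), which encodes the GPI-anchored tetherin. Of 7 CD4 T-cell genes 4 were listed, at a summed 21.1 to 30.6 RPKM in GFP-hi against 41.0 to 51.4 RPKM in GFP-lo, a difference carried by Cd40lg, the CD40 ligand gene (-1.13, adjusted p = 0.011). Izumo1r, given above, was higher, and Ctla4 (0.53, adjusted p = 0.16) and Cxcr5 (-0.37, adjusted p = 0.39) did not pass. Of 20 memory and effector CD8 T-cell genes 11 were listed, with a summed level of 510 to 532 RPKM in GFP-hi against 480 to 495 RPKM in GFP-lo. The chemokine receptor gene Cxcr3 was lower in GFP-hi, with 8.87, 9.12 and 12.6 RPKM against 23.5, 22.3 and 31.4 RPKM (-1.26, adjusted p = 0.0054), and Id2 was higher (0.36, adjusted p = 0.040), while Cd44 (-0.06, adjusted p = 0.69), Il2rb (0.26, adjusted p = 0.13), Eomes (-0.01, adjusted p = 0.97), Tbx21 (-0.11, adjusted p = 0.84), Ccl5 (-0.40, adjusted p = 0.24), Nkg7 (0.13, adjusted p = 0.21), Klrd1 (0.03, adjusted p = 0.86) and Ifng (0.08, adjusted p = 0.92) did not pass. The part of any of these cells in the Ly6 values was not tested.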

How the data were processed

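RNA from 6 sorted samples of mouse spleen CD8 T cells (3 GFP-hi, 3 GFP-lo) was made into cDNA with a SMART-seq v4 kit and into libraries with Nextera XT, per the labels' protocols. The authors deposited RPKM values per gene, per the file headers. STAR and the build mm10 are named in the submitters' processing notes, and the read counter, annotation, handling of multiply mapped reads and rule for listing genes are not given in the sources used here. All 6 columns were used.

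Genes with a mean of at least 1 RPKM (9351 of 11162) were compared with limma 3.58.1 (R 4.3.3) on log2(RPKM + 1) (lmFit, then eBayes with its trend option; population as the sole term; two-sided). P-values were adjusted over all of these genes by the Benjamini-Hochberg method. Errors are SD over libraries or limma standard errors. On simulated data for this comparison (9351 genes, 200 of them changed), 95.7% of changes of 1 and 71.0% of changes of 0.5 on the log2 scale were recovered, with 4.87% and 5.71% false calls. The simulated noise was independent between genes, without the patterns that libraries share in these data. The rates are averages over genes of all spreads (median SD 0.0897), so they do not hold for Ly6a and Ly6c2, with SDs of 0.314 and 0.388. Depth was recovered from genes with 1 annotated transcript, where 79.2% to 89.1% of low values came out whole to within 0.1 read (chance gives 20%). PCR copies may be among these reads, which was not tested, and counting error alone can understate the noise. Coding sequences came from GENCODE M21 and promoters from RefSeq (GRCm38.p6). Figures were drawn with matplotlib 3.10.9.

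The members and gene lists were chosen with earlier results of these data known. The text names all listed members, genes of the lists with an adjusted p under 0.05, genes of at least 1 RPKM in the lists of other cell types and of Ly6 relatives, interferon receptor genes (1 further gene of this rule is not reported here), and the 5 genes with the highest Pearson r to Ly6a, Ly6c1 and Ly6c2. Markers under 1 RPKM, the neighbours of the cluster and Hspa1a were chosen after values were seen. Alternatives changed the pseudocount (0.1, 0.5), the filter (none, or a mean of at least 5 RPKM), the scaling (median centring, quantiles, trimmed mean of M values), the variance model (no trend, robust, array weights), the treatment of Ly6c1 and Ly6c2 (summed) and the libraries.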

Additional observations from a re-analysis of the deposited data

How the results depend on the processing

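The direction of all 7 listed genes did not change under any of the alternatives that tested them. Log2 differences ran from -1.12 to -0.76 for Ly6a, -1.05 to -0.63 for Ly6c2, -0.76 to -0.39 for Ly6c1, -0.39 to -0.30 for Ly6e, -0.38 to -0.12 for Ly6k, -0.22 to -0.02 for Thy1 and 0.16 to 0.42 for Ly6g5b. The number of listed genes lower in GFP-hi was 2. It was 1 with robust variance estimation, 1 without the pair poor in nasal receptor reads, 0 without the pair rich in heat-shock RNA, and 0 to 3 when 1 library was left out (omitting GFP-hi replicates 1, 2 and 3 in turn gave 0, 1 and 3, and omitting those of GFP-lo gave 1, 0 and 0). The summed Ly6c1 and Ly6c2 ranged from -1.05 to -0.63 when 1 library was left out. Over all genes, 369 differed. The number was 202 with a mean of at least 5 RPKM, where fewer genes were tested, 1282 with array weights, 90 without the pair rich in heat-shock RNA, 407 without the pair poor in nasal receptor reads, and 134 to 298 when 1 library was left out (omitting GFP-lo replicates 1, 2 and 3 in turn gave 218, 134 and 164, and omitting GFP-hi replicates 1 and 3 gave 149 and 182). The cause was not tested for the array weights, the robust variance or the libraries left out. The split was 230 higher and 139 lower, and with trimmed mean of M values factors 199 and 183. The fits without a pair of libraries were added after seeing the data. A mean of at least 5 RPKM left Ly6c1 and Ly6g5b untested. No paired analysis was made, because the labels give the samples no replicate numbers and state no shared animal or day. Libraries given the same number, in record order, did vary together: both numbered 2 were high in Hspa1a, and for 43 of 49 interferon-stimulated genes those numbered 3 were the highest of their population. The unpaired fits count such shared variation as spread within the populations. Whether these libraries share a source was not tested, and a shared source could change the errors and adjusted p-values given here. Depth limits Ly6c1 and Ly6g5b most, at 26 to 69 and 38 to 64 reads per library.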
